A study of Rattus norvegicus with 8 samples.

Results

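Cohesin and condensin are the ring-shaped protein complexes that hold and fold chromosomes, and 10 of their subunit genes were followed in rat germ cells after doxorubicin, an anthracycline chemotherapy agent that locks topoisomerase II onto cut DNA. The genes were taken by symbol as known subunits, with no cutoff on a measured value, though earlier results of these data were known when the list was drawn up: Smc1a, Smc3, Rad21, Stag1 and Stag2 of cohesin, and Smc2, Smc4, Ncaph, Ncapd2 and Ncapg of condensin. All 10 had 1 row each among the 24059 genes of the table. PolyA RNA was sequenced from GFP-positive testis germ cells of young transgenic Sprague-Dawley males bearing the GCS-EGFP germ cell reporter. The control group was 4 rats given vehicle (numbers 1, 4, 5 and 9), and the doxorubicin group was 4 rats given 5 mg/kg (numbers 2, 3, 6 and 8). Exposure was on postnatal day 6, and cells were isolated 24 h later in both groups. The sources used here do not give the promoter of the reporter, the vehicle or the litters.

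Both complexes are built on a pair of SMC proteins, long ATPases that join at one end through a hinge and are closed at the other by a kleisin subunit. Cohesin (Smc1a, Smc3, the kleisin Rad21 and either Stag1 or Stag2) holds sister chromatids together from replication to anaphase, forms chromatin loops in interphase, and is recruited to DNA breaks. Condensin (Smc2 and Smc4 with the kleisin Ncaph and the HEAT-repeat subunits Ncapd2 and Ncapg in condensin I, or with Ncaph2, Ncapd3 and Ncapg2 in condensin II) compacts chromosomes for mitosis. Spermatogonia at this age divide by mitosis, and germ cells later exchange several cohesin subunits for meiotic versions.

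Levels are TMM-scaled CPM, that is counts relative to library size, with total estimated counts of 41253800 to 58871100 per library. Levels of the subunit genes are not compared with each other, because transcript lengths were not used here. The marker sums below are not corrected for length either, come from lists of 5 or 6 genes, and do not measure purity. The germ cell markers Ddx4, Dazl, Mael, Dnd1, Sall4 and Zbtb16 summed to 1727 CPM in controls and 1767 CPM after doxorubicin, while the marker lists of 6 other testis and blood cell types summed to between 4.12 and 83.1 CPM in controls and between 4.86 and 89.2 CPM in treated rats. The endothelial list had the highest of these sums, of which Pecam1 alone gave 70.7 CPM. Within the erythroid list (7.21 CPM in all in controls, 9.65 CPM in treated rats) 3 of 5 markers had groups that did not overlap, in opposite directions. Of all genes tested, 4.72% had groups without overlap, 2.77% with treated rats higher and 1.95% with treated rats lower. Slc4a1, the red cell anion exchanger, rose from 3.09 ± 0.35 to 7.48 ± 2.21 CPM (SD, n = 4 each; edgeR adjusted p = 0.0339, from 7.73e-09 to 0.906 over 18 alternatives). The globins Hbb and Hba-a1 had 1.55 and 2.06 CPM in controls against 0.688 and 1.121 CPM in treated rats (edgeR adjusted p = 0.192 and 0.206; DESeq2 adjusted p = 0.0242 and 0.0382). In the peritubular and stromal list, Pdgfra and Col1a1 lay lower in every treated library than in every control, and neither passed edgeR (adjusted p = 0.713 and 0.746). Of the 6 markers of that list, 5 were lower and 1 was higher. The higher one, Myh11, went from 5.09 ± 0.93 to 8.75 ± 3.7 CPM with overlapping groups (SD, n = 4 each; edgeR adjusted p = 0.561). The part of these markers in the results was not tested. Cdkn1a, the cell cycle inhibitor p21 and a known p53 target, stood at 5.73 ± 0.34 CPM in controls against 20.8 ± 10.2 CPM in treated rats (SD, n = 4 each), and the groups did not overlap. Its log2 change, the log2 fold change of doxorubicin over control, was 1.86 ± 0.31 (SE; edgeR quasi-likelihood test, adjusted p over all genes = 0.107; DESeq2 adjusted p = 6.44e-06). Doxorubicin rat 2 stood highest for it at 36.0 CPM, and without that rat the log2 change was 1.45 (edgeR adjusted p = 1.02e-06). Over its 18 alternatives the log2 change ran from 1.45 to 2.09 and the adjusted p from 1.02e-06 to 0.949.

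The comparison of doxorubicin with vehicle asks whether the transcripts of these complexes differed a day after exposure. None of the 10 subunit genes passed the test, in a background where 0.112% of the 16976 genes tested were called (edgeR quasi-likelihood test with Benjamini-Hochberg adjustment, threshold 0.05). Their adjusted p-values ran from 0.403 to 0.979, and DESeq2 and limma-voom, which called 0.959% and 0.141% of the genes they tested, also called 0 of the 10. At an unadjusted p below 0.05 there was 1 member, Ncapd2, where 6.76% of all genes lay. None of the 10 had groups that did not overlap, against 4.72% of all genes. The log2 changes ran from -0.065 for Smc1a to 0.11 for Ncapd2, that is 0.956-fold to 1.08-fold, and 6 were positive and 4 negative. Each member had between 2671 and 27761 counts per library, so counting error was at most 1.93%. Over the 10 genes the 95% intervals of the change reached from 0.90-fold to 1.14-fold at their widest ends, each interval taken alone. In bulk samples fewer cells of a type and less RNA per cell cannot be told apart.

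**Figure D1:**
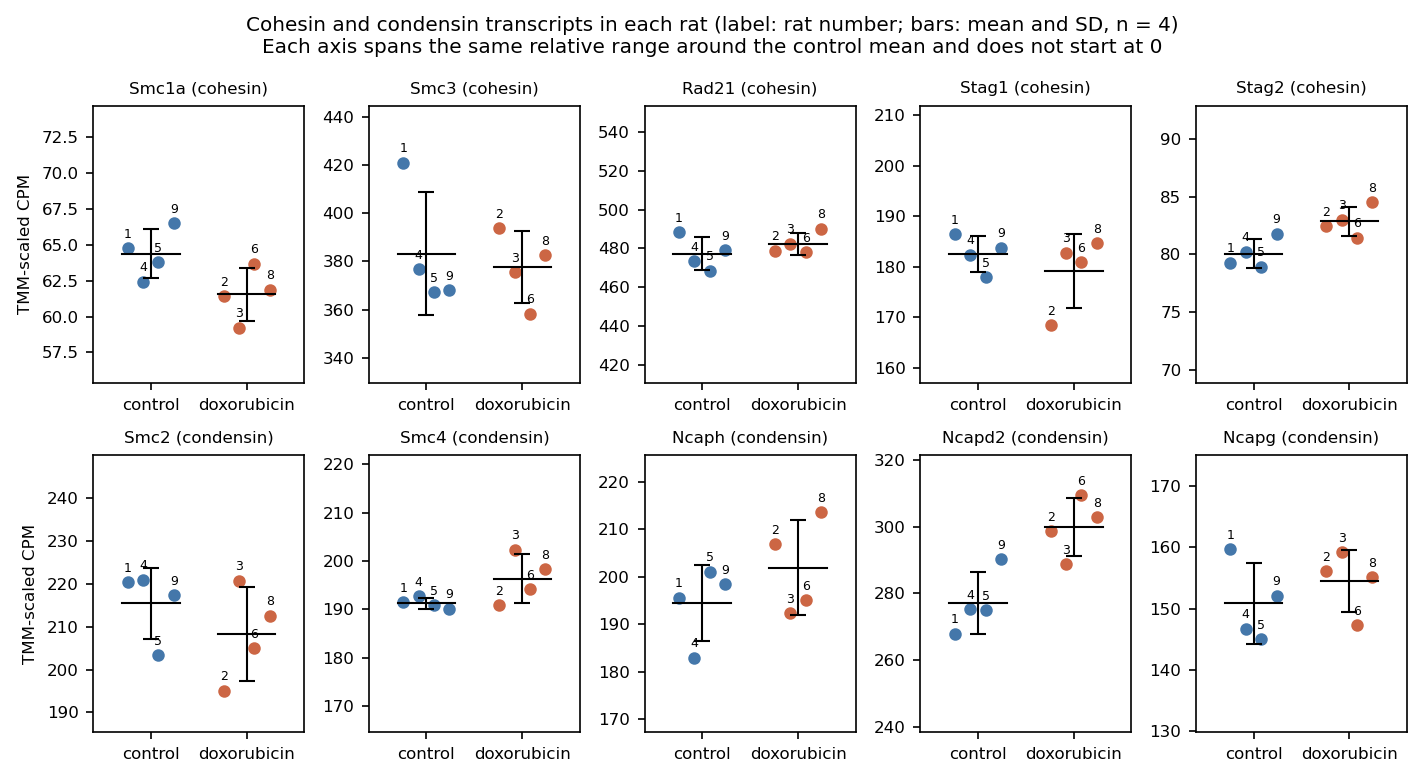
TMM-scaled CPM of the 10 subunit genes in each of the 8 libraries (points, labelled with the rat number), with the mean and SD of the 4 rats per group. Every axis covers the same relative range around the control mean and none starts at 0. The groups overlap for all 10 genes, and Ncapd2 has the widest separation between the means (277.1 and 299.9 CPM).

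Among the cohesin subunits, neither gene of the SMC pair passed the test. Smc1a (ENSRNOG00000003139.8) measured 64.8, 62.4, 63.8 and 66.5 CPM in control rats 1, 4, 5 and 9, and 61.4, 59.2, 63.7 and 61.9 CPM in doxorubicin rats 2, 3, 6 and 8. Of the treated libraries, 2, 3 and 8 lay below every control, and rat 6 lay within the control range. The log2 change was -0.065 ± 0.040 (SE; edgeR adjusted p = 0.842), with a 95% interval from -0.15 to 0.022, and ran from -0.076 to -0.043 with single libraries left out. Smc3 (ENSRNOG00000014173.8) measured 420.9, 376.7, 367.3 and 368.0 CPM in controls and 393.8, 375.5, 358.3 and 382.6 CPM after doxorubicin. Control rat 1 stood above all other libraries, and the control coefficient of variation, 6.65%, was the highest among the 10 members. The log2 change of Smc3 was -0.021 ± 0.047 (edgeR adjusted p = 0.979), and its sign turned without control rat 1 (0.027) or doxorubicin rat 6 (0.0077).

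Rad21, the kleisin that separase cuts at anaphase, was among the steadiest of the 10 genes (ENSRNOG00000004420.6). Controls lay between 468.5 and 488.3 CPM and treated rats between 478.0 and 490.2 CPM, so the ranges overlapped in part, with control rats 4 and 5 below every treated library. The log2 change was 0.015 ± 0.029 (edgeR adjusted p = 0.973), with a 95% interval from -0.047 to 0.077, and ran from 0.0062 to 0.026 with single libraries left out.

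Stag1 and Stag2 encode alternative subunits of the ring, each found in its own population of cohesin. Stag1 (ENSRNOG00000015389.8) measured 177.9 to 186.4 CPM in controls and 168.5, 182.8, 180.9 and 184.7 CPM in doxorubicin rats 2, 3, 6 and 8. Rat 2 alone lay below the controls. The log2 change was -0.027 ± 0.037 (edgeR adjusted p = 0.961) and 0.0017 without doxorubicin rat 2. Stag2 (ENSRNOG00000029885.6) measured 79.3, 80.2, 79.0 and 81.8 CPM in controls and 82.4, 83.0, 81.5 and 84.5 CPM after doxorubicin. All but 1 of its treated libraries lay above every control, the exception being rat 6, which lay just under control rat 9. Its log2 change was 0.050 ± 0.035 (edgeR adjusted p = 0.876), with a 95% interval from -0.026 to 0.13.

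Over the 5 cohesin genes, 2 log2 changes were positive and 3 negative, with a median of -0.022, where the median over all genes tested was -0.0047. The sign of that median rested on single libraries: it was 0.026 without control rat 1, 0.0017 without doxorubicin rat 2 and 0.0077 without doxorubicin rat 6.

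The condensin genes were positive in 4 of 5 cases, with a median log2 change of 0.038, and 47.8% of all genes tested were positive. Ncapd2 (ENSRNOG00000055300.2), a HEAT-repeat subunit of condensin I, had the smallest p of the 10 members. It measured 267.9, 275.3, 275.0 and 290.3 CPM in control rats 1, 4, 5 and 9, and 298.6, 288.8, 309.4 and 302.8 CPM in doxorubicin rats 2, 3, 6 and 8. Doxorubicin rat 3 lay just under control rat 9, and the other treated libraries lay above every control. The mean was 277.1 ± 9.45 CPM in controls and 299.9 ± 8.63 CPM after doxorubicin (SD, n = 4 each). The log2 change was 0.11 ± 0.035 (95% interval 0.038 to 0.19; edgeR adjusted p = 0.403, rank 283 by p among the genes tested; DESeq2 adjusted p = 0.218). Of the 3864 tested genes within the members' range of mean level (63.0 to 479.8 CPM), 93.4% had a smaller change than Ncapd2, and 8.1% had an unadjusted p below 0.05. Ncapd2 was singled out as the largest change of the 10 members, and for the others this share ran from 22.7% to 77.8%. Leaving out any one library gave between 0.098 and 0.14. The rat numbers were cut here into 2 runs, 1 to 4 and 5 to 9, each with 2 rats per group. No label gives this cut. The value was 0.12 both within rats 1 to 4 and within rats 5 to 9. Both runs are parts of the libraries in which Ncapd2 was singled out, so they are not a separate check.

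Ncaph and Ncapg, the condensin I kleisin and its second HEAT-repeat subunit, did not pass the test either. Ncaph (ENSRNOG00000012051.8) measured 195.6, 183.0, 201.1 and 198.4 CPM in controls and 206.9, 192.3, 195.1 and 213.6 CPM after doxorubicin. Doxorubicin rats 2 and 8 lay above the controls while rats 3 and 6 lay among them, so the log2 change of 0.054 ± 0.043 did not pass (edgeR adjusted p = 0.908). Ncapg (ENSRNOG00000038572.5) lay between 145.0 and 159.7 CPM in controls and between 147.3 and 159.2 CPM after doxorubicin, a log2 change of 0.033 ± 0.040 (edgeR adjusted p = 0.952). With single libraries left out, the value ran from 0.026 to 0.082 for Ncaph and from 0.015 to 0.062 for Ncapg.

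The SMC pair of condensin, which condensin I and II share, had opposite signs. Smc4 (ENSRNOG00000010274.6) measured 191.5, 192.7, 190.8 and 190.1 CPM in controls, a coefficient of variation of 0.574%, the lowest among the members. Counting error was 0.6% even at the highest count of any member, so this narrow control range does not show a steady level. Doxorubicin rats 2, 3, 6 and 8 measured 190.8, 202.3, 194.1 and 198.3 CPM, with 3 of them above every control and rat 2 inside the control range. The log2 change was 0.038 ± 0.031 (edgeR adjusted p = 0.918). Smc2 (ENSRNOG00000022325.7) measured 220.4, 220.9, 203.3 and 217.3 CPM in controls and 195.1, 220.7, 204.9 and 212.5 CPM after doxorubicin. Doxorubicin rat 2 was the lowest of the 8 libraries, and rat 3 was level with the highest controls. The log2 change was -0.049 ± 0.043 (95% interval -0.14 to 0.045; edgeR adjusted p = 0.928), and ran from -0.076 to -0.018 with single libraries left out.

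**Figure D2:**
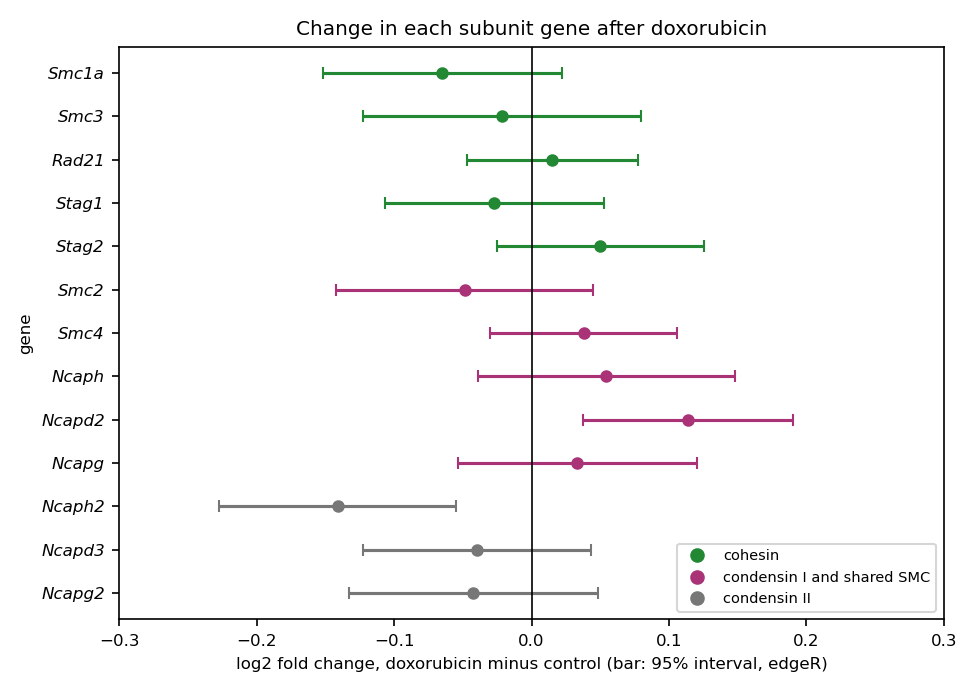
Log2 fold change (doxorubicin minus control, horizontal axis) of each subunit gene with its 95% interval from the edgeR fit over all 8 libraries. Of the 10 cohesin and condensin genes, 9 have an interval that includes 0, and the interval of Ncapd2 lies above it. Ncaph2 of condensin II lies below 0.

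The genes that only condensin II uses were negative in 3 of 3 cases, with a median log2 change of -0.042. Of the 16976 genes tested, 8868 were negative. Ncaph2, its kleisin (ENSRNOG00000009598.8), measured 103.6, 97.7, 97.3 and 96.3 CPM in control rats 1, 4, 5 and 9, and 90.9, 92.6, 89.2 and 85.4 CPM in doxorubicin rats 2, 3, 6 and 8. All treated libraries lay below all controls, as for 1.95% of all genes tested. Its log2 change was -0.14 ± 0.040 (95% interval -0.23 to -0.055; edgeR adjusted p = 0.308; DESeq2 adjusted p = 0.135), so it did not pass over all genes. Within rats 1 to 4 the value was -0.13 and within rats 5 to 9 it was -0.15, again in parts of the same libraries. For Ncapd3 and Ncapg2 the log2 changes were -0.040 and -0.042 (edgeR adjusted p = 0.941 for both), and within rats 5 to 9 that of Ncapg2 was 0.019. None of the 3 genes passed edgeR, DESeq2 or limma-voom. The log2 ratio of Ncaph to Ncaph2 within a library was 0.92, 0.91, 1.05 and 1.04 in controls and 1.19, 1.06, 1.13 and 1.32 after doxorubicin, and is given without a test because these genes were picked for it after their values were seen.

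The promoters of the condensin genes are shown because 4 of 5 hold both elements typical of genes expressed in G2 and M phase: the CHR, bound by the DREAM and MuvB complexes, and the CCAAT box, bound by NF-Y. Windows run from 250 bases before to 50 after the gene start (RefSeq, GRCr8), and 9 of the 10 members had one. The search took TTTGAA or TTCGAA as the CHR and CCAAT as the CCAAT box, on both strands. Each sequence reads 5′ to 3′ in the direction of transcription, with matches to either in capitals, and no matches of different motifs overlapped in the members' windows. Ncaph2 is added for comparison.
Ncapd2, chr4:159677889-159678188, minus strand: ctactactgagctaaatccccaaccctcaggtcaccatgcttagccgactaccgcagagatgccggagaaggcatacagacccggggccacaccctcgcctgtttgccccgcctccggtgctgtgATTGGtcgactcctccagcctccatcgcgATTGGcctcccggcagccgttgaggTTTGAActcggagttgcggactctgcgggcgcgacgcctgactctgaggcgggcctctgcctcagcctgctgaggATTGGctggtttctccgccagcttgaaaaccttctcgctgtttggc
Ncapg, chr14:69645396-69645695, minus strand: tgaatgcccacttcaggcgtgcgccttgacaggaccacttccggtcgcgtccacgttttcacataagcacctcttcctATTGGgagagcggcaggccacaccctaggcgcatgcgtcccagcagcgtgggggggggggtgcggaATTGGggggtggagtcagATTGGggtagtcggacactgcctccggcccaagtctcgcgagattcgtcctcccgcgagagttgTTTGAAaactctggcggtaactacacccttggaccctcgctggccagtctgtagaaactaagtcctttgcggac
Smc4, chr2:155550012-155550311, plus strand: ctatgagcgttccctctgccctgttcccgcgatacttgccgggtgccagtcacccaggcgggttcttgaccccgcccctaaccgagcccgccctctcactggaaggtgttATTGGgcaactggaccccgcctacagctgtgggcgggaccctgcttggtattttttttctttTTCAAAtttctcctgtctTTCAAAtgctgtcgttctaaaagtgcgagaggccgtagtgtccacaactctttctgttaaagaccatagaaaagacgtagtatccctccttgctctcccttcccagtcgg
Smc2, chr5:71602155-71602454, plus strand: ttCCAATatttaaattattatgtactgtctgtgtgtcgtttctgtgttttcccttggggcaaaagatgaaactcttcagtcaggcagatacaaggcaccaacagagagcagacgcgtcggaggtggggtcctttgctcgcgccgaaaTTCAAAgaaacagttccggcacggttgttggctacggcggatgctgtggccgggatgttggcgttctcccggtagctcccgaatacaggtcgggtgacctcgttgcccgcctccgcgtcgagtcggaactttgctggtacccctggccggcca
Ncaph2, chr7:122302329-122302628, plus strand: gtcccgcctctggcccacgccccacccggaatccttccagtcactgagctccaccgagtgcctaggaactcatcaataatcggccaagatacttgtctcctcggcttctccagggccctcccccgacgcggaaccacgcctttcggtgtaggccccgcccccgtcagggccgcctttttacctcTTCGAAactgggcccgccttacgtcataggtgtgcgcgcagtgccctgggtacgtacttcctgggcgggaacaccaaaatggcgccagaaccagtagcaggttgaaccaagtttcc

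In the Ncapd2 window the CHR match lay 71 to 66 bases before the start, with CCAAT matches farther out at 96 and 125 bases before it and another just after the start. Ncapg had its CHR match 24 to 19 bases before the start and 3 CCAAT matches farther out. Smc4 had 2 CHR matches, at 78 and 60 bases before the start, and 1 CCAAT match. Smc2 had 1 of each, but its CCAAT match lay at the far edge of the window, 248 bases before the start. The Ncaph window held neither, and the Ncaph2 window held a CHR match without a CCAAT box. The windows of Ncapd3 and Ncapg2, also of condensin II, held neither. Of the 4 cohesin genes with a window (Smc1a, Smc3, Stag1 and Stag2), 3 held a CCAAT match and 0 held a CHR match. Matches to an E2F site (TTTCCCGC, TTTCGCGC, TTTGCCGC or TTTGGCGC) were found in 2 of these 4, Smc1a and Stag1, and in 0 of 5 condensin windows. Over all 33469 promoter windows of the RefSeq table, 19.7% held a CHR match, 37.5% a CCAAT match, 7.95% both and 2.14% an E2F match. Having both was not particular to condensin among the gene lists described below. Both were held by 4 of 5 windows of cohesin cleavage and protection, 4 of 4 of condensin partners and 6 of 12 of G2/M. For G1/S it was 2 of 11, and for each other list 0. A match describes letters in the window and is not evidence of binding. Of the members with both motifs, Ncapd2, Ncapg and Smc4 had positive log2 changes and Smc2 a negative one, none of which passed. Ncaph, whose window held neither, also had a positive log2 change, 0.054, which did not pass. Whether the motifs go with the direction of change was not tested.

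**Figure D3:**
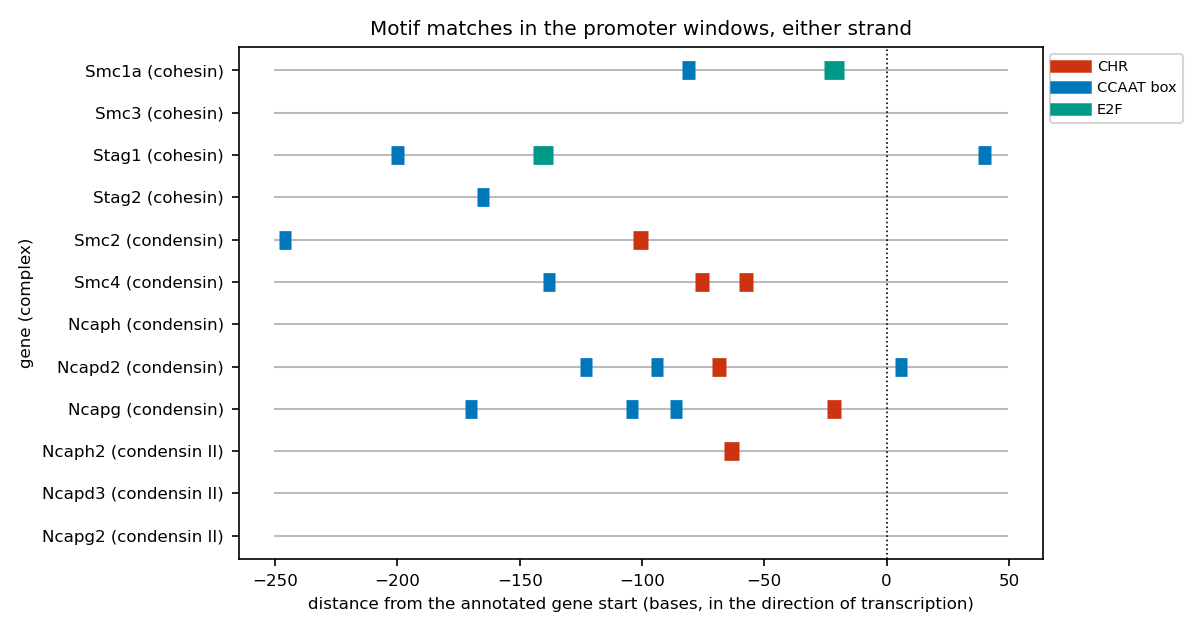
Matches to the CHR, CCAAT box and E2F motifs, on either strand, along the promoter windows of the cohesin, condensin and condensin II genes that had one (horizontal axis: distance from the annotated start in bases; dotted line: the start). CHR matches lie in 4 of 5 condensin windows and in 0 of 4 cohesin windows.

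Other genes of the pathway were taken from lists drawn up by function. Over all genes tested in edgeR, 47.8% had a positive log2 change, 0.112% were called and 6.76% had an unadjusted p below 0.05. DESeq2 called 0.959% of the genes it tested. The 6 genes of the list of cohesin cleavage and protection were all positive, with a median log2 change of 0.14. None passed edgeR over all genes, 4 had an unadjusted p below 0.05, and DESeq2 called 1, Plk1. Plk1, the mitotic kinase that releases cohesin from chromosome arms, measured 141.3, 134.2, 118.5 and 122.7 CPM in controls and 174.1, 157.1, 156.5 and 154.1 CPM after doxorubicin. Every treated library lay above every control, as for 2.77% of all genes tested. Its log2 change was 0.31 ± 0.058 (edgeR adjusted p = 0.0801; DESeq2 adjusted p = 0.000529), so that the call differed between the tools. It passed edgeR without control rat 1 (log2 change 0.36, adjusted p = 0.0302), with a term for the 2 runs of rat numbers (0.32, adjusted p = 0.00774) and within rats 5 to 9 (0.37, adjusted p = 0.0011). It did not pass within rats 1 to 4 (0.27, adjusted p = 0.906) or without any other single library (adjusted p from 0.0702 to 0.277).

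Bub1, a checkpoint kinase whose mark on centromeres recruits the cohesin protector shugoshin, and Pttg1, the securin that restrains separase, likewise had groups that did not overlap. Their log2 changes were 0.12 ± 0.033 and 0.20 ± 0.060 (edgeR adjusted p = 0.268 and 0.374). Sgo2, a shugoshin, had a log2 change of 0.16 ± 0.055 (edgeR adjusted p = 0.479), with 100.2 to 121.6 CPM in controls and 120.2 to 127.9 CPM after doxorubicin. Its value was 0.089 within rats 1 to 4 (adjusted p = 1) and 0.25 within rats 5 to 9, where it passed edgeR (adjusted p = 0.0451).

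Factors that load, release or acetylate cohesin were divided, with 4 positive and 5 negative and a median of -0.027. None of the 9 passed edgeR or DESeq2, and 1 had an unadjusted p below 0.05. That was Hdac8, the deacetylase that recycles Smc3, which had the largest log2 change of the list, -0.39 ± 0.17, at only 1.61 ± 0.24 CPM in controls (edgeR adjusted p = 0.669). Nipbl, the loader, stood at 154.9 to 187.0 CPM in controls and 166.1 to 198.4 CPM after doxorubicin, a log2 change of 0.13 ± 0.064 (edgeR adjusted p = 0.778). Wapl, which opens the ring, and Pds5a, its partner, gave log2 changes of -0.040 and -0.046 (edgeR adjusted p = 0.926 and 0.935).

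The meiotic cohesin genes were negative in 4 of 4 cases, with a median of -0.063, none with an unadjusted p below 0.05 and none called by edgeR or DESeq2. In controls Smc1b stood at 204.2 ± 12.0 CPM and Stag3 at 236.9 ± 10.9 CPM, against 197.7 ± 5.18 and 230.8 ± 8.65 CPM in treated rats (SD, n = 4 each). Transcripts of both were present in both groups. Those of the meiotic kleisins Rec8 (2.73 ± 0.72 CPM in controls) and Rad21l1 (10.02 ± 0.42 CPM) were present too, with 110 to 184 and 407 to 575 counts per library. The log2 changes of Smc1b, Stag3, Rec8 and Rad21l1 were -0.047, -0.037, -0.079 and -0.11. The sign for Rec8 turned without control rat 5 (0.051), control rat 9 (0.022) or doxorubicin rat 3 (0.013).

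The SMC5/6 complex, the third SMC ring and one that acts in recombination repair, gave 2 positive and 3 negative values among 5 measured genes, with a median of -0.016. None of the 5 had an unadjusted p below 0.05, and none was called by edgeR or DESeq2. Smc6, Nsmce1, Nsmce2 and Nsmce4a had log2 changes of -0.039, -0.016, -0.054 and 0.049. That of Nsmce1 was 0.012 without control rat 1 and 0.0073 without doxorubicin rat 3. Ctcf, the factor that stops cohesin at loop boundaries, had a log2 change of -0.073 ± 0.036 (edgeR adjusted p = 0.784), and its testis paralog Ctcfl stood near the limit of detection at 0.24 ± 0.05 CPM in controls.

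Partners of condensin on the chromosome axis were positive in 5 of 6 cases, with a median of 0.066. None passed edgeR or DESeq2, and 2 had an unadjusted p below 0.05, Top2a and Cdk1. Top2a, the topoisomerase that doxorubicin traps, measured 345.1, 346.1, 310.6 and 334.1 CPM in controls and 366.9, 374.8, 355.8 and 347.4 CPM after doxorubicin, a log2 change of 0.11 ± 0.041 (edgeR adjusted p = 0.528). Its treated libraries lay just above its controls without overlap, as for 2.77% of all genes tested. Cdk1, the kinase that activates condensin in mitosis, had a log2 change of 0.20 ± 0.079 (edgeR adjusted p = 0.662), and Kif4a, a chromokinesin that works with condensin I, had one of 0.074 ± 0.038 (edgeR adjusted p = 0.796). Aurkb, the kinase of the chromosomal passenger complex, had one of 0.059 ± 0.041 (edgeR adjusted p = 0.879).

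Beside these, 15 of 15 genes of a G2/M list were positive, with a median log2 change of 0.16, and 15 of 15 genes of a G1/S list were negative, with a median of -0.099. Of the G2/M genes, 1 passed edgeR (Prc1, log2 change 0.26 ± 0.042, adjusted p = 0.0446), 6 passed DESeq2 and 14 had an unadjusted p below 0.05. Over all genes tested these shares were 0.112%, 0.959% and 6.76%, and 47.8% were positive. The edgeR call of Prc1, a microtubule bundler of the spindle midzone, was lost in 9 of 18 alternatives, with an adjusted p from 8.42e-05 to 0.906; among these were the fits without control rats 4, 5 or 9 or doxorubicin rats 3, 6 or 8. Of the G1/S genes, 0 passed edgeR or DESeq2 and 4 had an unadjusted p below 0.05, all negative. The mean log2 CPM of the G2/M list was 7.19 to 7.26 in controls and 7.35 to 7.45 after doxorubicin. That of the 5 condensin genes was 7.64 to 7.68 in controls and 7.67 to 7.72 after doxorubicin. The part of cell cycle stage in the condensin values was not tested.

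**Figure D4:**
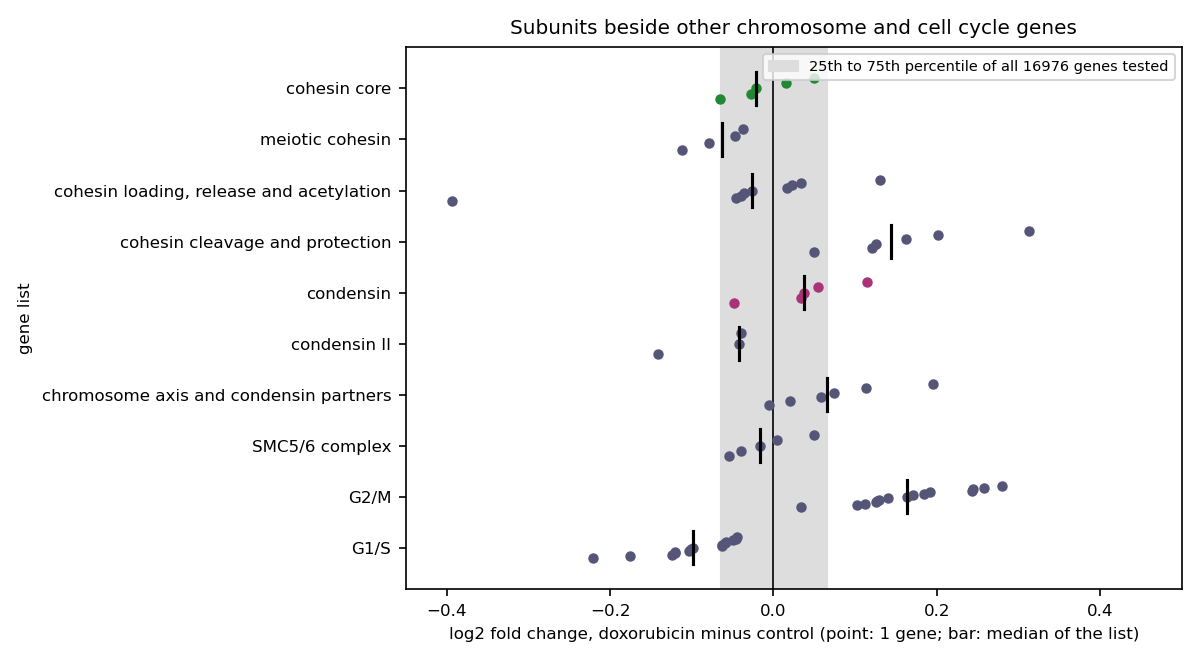
Log2 fold change (doxorubicin minus control) of every tested gene in 10 lists, 1 point per gene with the list median as a bar. The shaded band runs from the 25th to the 75th percentile of all 16976 genes tested (-0.065 to 0.065). It is drawn from single genes at every level. The median size of the log2 change was 0.065 over all genes tested, 0.034 within the members' range of mean level and 0.043 over the members. The cohesin and condensin medians (-0.022 and 0.038) lie inside the band, while the medians of the G2/M list (0.16), of the G1/S list (-0.099) and of the genes of cohesin cleavage and protection (0.14) lie outside it, and that of the condensin partners (0.066) lies at its upper edge, just outside.

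Across the 8 libraries the members did not move as a unit. Within cohesin, 5 of 10 gene pairs had a positive Pearson correlation of log2 CPM (median 0.015), and within condensin 8 of 10 did (median 0.26). The highest value crossed the complexes: Stag1 and Smc2 had r = 0.864, both being lowest in doxorubicin rat 2. These are descriptions over 8 libraries, which share depth, scaling and treatment. Among 9176 other genes with a mean of at least 10 CPM, those most like the mean of the condensin genes were Slc43a2, Ptprk, Cdc42bpa, Lrba and Pacs2 (r from 0.945 to 0.964), and those most like the cohesin mean were Meox1, Rcan3, Nip7, Itpr1 and Hlcs (r from 0.891 to 0.931). No p is given for these likenesses, which were sought over all candidates.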

How the data were processed

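RNA came from the PicoPure kit with a RIN above 8, and libraries were polyA-enriched, per the labels' protocols. Build rn6 and the tools DESeq2 1.40.2, featureCounts, kallisto 0.48.0, Trimmomatic, fastp 0.23.2, MultiQC 1.12 and FastQC 0.11.9 are listed, without roles or order, per the submitters' processing notes. The authors deposited estimated counts per gene, not normalized. In each library 32.5% to 33.6% of them were not whole (tolerance 1e-06), among the members those of Stag2, Smc4 and Ncapd2. The strand setting and the treatment of reads shared between genes are not stated in these sources.

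Counts were rounded and tested in R 4.3.3 with edgeR 4.0.16 (filterByExpr, TMM, robust quasi-likelihood F test, Benjamini-Hochberg over 16976 genes, no covariate). SEs were derived from each fold change and F statistic. Log2 CPM used a prior count of 2. Alternatives were DESeq2 1.42.0, limma-voom (limma 3.58.1), other scalings and filters, a term for runs of rat numbers, and single libraries left out. A symbol with several rows took the row with the highest mean. Members and lists were chosen with earlier results of these data known. All members, the 3 genes of condensin II and up to 4 genes of each other pathway list by smallest p were named, with any gene past the threshold. Slc4a1, Hbb, Hba-a1, Pdgfra, Col1a1, Myh11 and Prc1 were named after their values were seen. Nsmce3 was not analysed here. Each pair of libraries differed by more than sampling noise (chi-square per degree of freedom at least 6.57). The labels name no shared litter or batch.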

Additional observations from a re-analysis of the deposited data

Results flagged for a closer look

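Of 80 groups of 4 libraries examined for the named genes, 6 had 1 library far from the rest of its group, where chance gives about 1 in 20 groups, or 4. No cohesin or condensin member was among them, though Smc3 in control rat 1 stood at 420.9 CPM (367.3 to 376.7 in the other controls). Doxorubicin rat 2 had 36.0 CPM for Cdkn1a (other treated rats 15.0 to 16.9), 174 CPM for Plk1 (154 to 157), 10.8 CPM for Slc4a1 (6.08 to 6.75) and 205 CPM for Smc1b (195 to 196). Hdac8 was at 1.48 CPM in doxorubicin rat 6 (1.122 to 1.18 in the others), and Rad21l1 was at 9.39 CPM in control rat 1 (10.2 to 10.3 in the others).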

How the results depend on the processing

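None of the 10 members passed in any alternative run. The number of genes called over the whole table was 19, against 170 with DESeq2, 53 without robust fitting and 61 with a term for the 2 runs of rat numbers (1 to 4, 5 to 9). With single libraries left out it ran from 1 to 62. Among controls, leaving out rat 1 gave 11, rat 4 gave 2, rat 5 gave 1 and rat 9 gave 3. Among treated rats, leaving out rat 2 gave 62, rat 3 gave 18, rat 6 gave 11 and rat 8 gave 1. The cause was not tested. Fits within each run of numbers were added after seeing the data and had only 2 rats per group. They called 0 genes in rats 1 to 4 and 92 in rats 5 to 9. The median of the 5 cohesin genes was 0.0176 in rats 5 to 9, and with single libraries left out it ran from -0.0396 to 0.0263. The condensin median ran from 0.0275 to 0.06 with single libraries left out.

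The sign of small changes turned in some fits. With single libraries left out, log2 changes ran from -0.0422 to 0.0267 for Smc3, from -0.042 to 0.0017 for Stag1, from -0.23 to 0.051 for Rec8, from -0.0304 to 0.0118 for Nsmce1 and from -0.15 to 0.29 for Ctcfl, which was -0.0586 with limma-voom. Within rats 1 to 4 they were 0.0486 for Rec8, 0.0217 for Nsmce2 and -0.24 for Ctcfl. Within rats 5 to 9 they were 0.0128 for Smc3, 0.0176 for Stag1, 0.0189 for Ncapg2, 0.0034 for Smc1b and 0.049 for Nsmce1. No paired analysis was possible because the 2 groups share no rat number. Counting error reached 1.93% in the member with the fewest counts, so changes of that size could not be told apart in a single library.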

Other observations

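Several log2 ratios between subunit genes were computed within each library, 11 in all, after the values were seen. For 3 of them the groups did not overlap: Ncaph to Ncaph2, Ncapd2 to Ncapd3, and Stag2 to Stag1. The log2 ratio of Stag2 to Stag1 was -1.23, -1.19, -1.17 and -1.17 in control rats 1, 4, 5 and 9, and -1.03, -1.14, -1.15 and -1.13 in doxorubicin rats 2, 3, 6 and 8. The log2 ratio of Ncapd2 to Ncapd3 was 0.24, 0.40, 0.42 and 0.42 in the same controls and 0.53, 0.43, 0.61 and 0.52 in the treated rats. These ratios were not tested, and no share over other gene pairs was computed to set beside them. Transcript length does not enter their differences between groups.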
